A study of Drosophila melanogaster with 9 samples.

Results

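Transcripts of 6 genes were followed through an RNA immunoprecipitation from Drosophila melanogaster ovaries: aramis (ais), athos (CG4901), porthos (CG9253), Non1, p53 and larp. They were chosen by name, as the helicases and regulators of the module the study was concerned with, and all 6 were present among the 17024 gene IDs counted. Every library came from ovaries carrying an aramis::GFP::FLAG transgene, dissected 1 to 3 days after eclosion. Each of 3 groups held 3 libraries of poly(A)-selected RNA: Input, the 10% of the lysate set aside before precipitation, IgG, a precipitation with control mouse IgG, and IP, a precipitation with antibody against the FLAG tag. No ovary without the transgene was among the libraries, and the driver of the transgene is not given in the sources used here. Counts were made per gene, so RNA of the ais locus and any RNA of the tagged copy share 1 value. The titles and genotype of the samples name aramis as the tagged protein, whereas the description of the design names FLAG-tagged Larp. The sample labels were followed, and neither the transcript counts of ais nor those of larp check which protein was tagged.

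Ribosome assembly begins in the nucleolus, where RNA helicases of the DEAD-box and DEAH-box families remodel precursor rRNA and release snoRNAs and assembly factors. Aramis, Athos and Porthos are helicases of this kind, and the yeast relative of Aramis is Rok1, which acts in small subunit assembly. Non1 is a nucleolar GTPase of large subunit assembly, p53 is a stress-responsive transcription factor, and Larp is a La-related protein that binds mRNAs beginning with a terminal oligopyrimidine (TOP) motif, a run of C and T letters at the very start of the transcript that is typical of ribosomal protein mRNAs.

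The helicase boxes are shown because they are what places the 3 helicases in their families. Each line gives the coding strand of the RefSeq genome (Release 6, dm6) around the box, 5′ to 3′, with the 4 codons of the box in capitals. A search of each longest protein found 1 such box, starting at residue 272 in Aramis, 188 in Athos and 211 in Porthos.
ais, DEAD box, chr3L:17803778-17803807, minus strand: ttcgtgctgGACGAAGCAGATcgcctgatg
CG4901, DEAH box, chr2L:10211974-10212003, plus strand: attattctgGACGAGGCTCACgagcgaacc
CG9253, DEAD box, chr2L:21144176-21144205, plus strand: ttggtcatgGACGAGGCGGATcgcattctt

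Positions and transcripts are those of the Ensembl annotation of the same assembly, and protein lengths are from the RefSeq annotation. The gene ais (FBgn0036754) lies on chromosome arm 3L at 17802490 to 17804715 on the minus strand, with 1 transcript and a protein of 594 residues. CG4901 (FBgn0032194) lies on 2L at 10211143 to 10213721 on the plus strand, with 3 transcripts and a longest protein of 694 residues. CG9253 (FBgn0032919) lies on 2L at 21143229 to 21145146 on the plus strand, with 1 transcript and a protein of 507 residues. The helicase genes are thus compact loci, and the same holds for Non1. Non1 (FBgn0028473) lies on 2R at 9396265 to 9398734 on the minus strand, with 2 transcripts and a longest protein of 652 residues. The other two genes have several products: p53 (FBgn0039044) on 3R at 23049657 to 23054082, minus strand, has 4 transcripts and proteins of 334 to 495 residues, and larp (FBgn0261618) on 3R at 28318162 to 28336440, minus strand, has 7 transcripts and proteins of 965 to 1673 residues. Values were counted over all transcripts of a gene, so isoforms were not separated.

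Total counts were 30533376 to 47080956 per library, so that 3 counts corresponded to 0.0636 to 0.112 CPM (counts scaled to library size, after TMM scaling). Replicates were close in Input and wide in IgG: the median coefficient of variation over the 8789 genes tested was 5.14% for Input, 26.2% for IgG and 10.2% for IP libraries. The libraries were not stated to come from separate animals or dissections, so p-values measure the spread between these libraries. With 3 libraries against 3, an exact two-sided permutation test of 1 gene cannot go below 0.1, and tests were therefore taken from edgeR's quasi-likelihood fit across all genes. The summed level of 5 germline markers (osk, grk, bcd, otu and aub) was 2610 to 2790 CPM in Input libraries, 2630 to 2850 CPM in IgG libraries and 2660 to 3060 CPM in IP libraries, and none of the 5 was at 0. The sum held members that differed: in IP over Input bcd (log2 fold change 1.94), grk (0.65) and otu (0.28) were called higher and osk (-0.34) lower. Summed follicle cell markers ranged over 12000 to 12500 CPM before precipitation, 20600 to 22200 CPM with IgG and 19200 to 19900 CPM with the FLAG antibody. Yp2 (5390 CPM) and Vm26Aa (3700 CPM) were the largest of these 6 markers in Input. In IP over Input 5 were called higher, and Yp3 (-0.13) was not called. In IP over IgG tj (0.49) was called higher, Yp3 (-0.44) lower and 4 were not called. Muscle markers ranged over 136 to 250 CPM in Input, 466 to 2870 CPM in IgG and 148 to 906 CPM in IP, and all 7 of 7 were called higher in IgG than in Input, as were 10.3% of all genes. The part these marker differences play in the values of the 6 genes was not tested. All libraries are fractions of bulk ovary lysate. Differences between Input, IgG and IP are differences in the RNA recovered from lysate and do not count cells. Within Input, the number of cells of a type and the RNA per cell cannot be told apart.

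Non1, the GTPase of large subunit assembly, showed the largest differences of the 6 genes. Its level was 616, 599 and 583 CPM in the 3 Input libraries, 262, 256 and 304 CPM in IgG, and 169, 163 and 159 CPM in IP. Every IgG library lay below every Input library, and every IP library lay below both. Relative to Input, Non1 fell by 1.88 on the log2 scale in IP (0.272-fold, SE 0.05, edgeR adjusted p = 2.16e-08), a change placed at the 2.05 percentile of all genes tested. The 3 same-numbered pairs of IP and Input libraries gave log2 ratios of -1.87, -1.88 and -1.88, so the depletion was nearly the same in each pair. Non1 was also lower in IP than in IgG, where the log2 difference came to -0.72 and its SE to 0.10 (edgeR adjusted p = 0.00417). The control precipitation itself held less Non1 than Input, by a log2 difference of -1.13 with SE 0.09 (edgeR adjusted p = 0.00134). These changes were less extreme among all genes tested, at the 13.2 percentile in IP over IgG and the 11.4 percentile in IgG over Input.

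The 2 helicases Athos and Porthos went in opposite directions between Input and IP. Porthos (CG9253) was at 172, 161 and 167 CPM in Input, 180, 195 and 192 CPM in IgG, and 275, 276 and 292 CPM in IP. The IP libraries stood apart above the other 6. Same-numbered pairs of IP and Input gave log2 ratios of 0.68, 0.77 and 0.81, and of IP and IgG 0.61, 0.50 and 0.61. In IP it rose by 0.75 over Input (log2, SE 0.05, edgeR adjusted p = 1.25e-06) and by 0.60 over IgG (SE 0.09, edgeR adjusted p = 0.00443). Between IgG and Input the CPM ranges did not overlap, but the log2 difference of 0.18 (95% interval 0 to 0.36) did not pass the test (edgeR adjusted p = 0.126). Athos (CG4901) was at 123, 121 and 130 CPM in Input, 96.9, 104 and 92.5 CPM in IgG, and 80.1, 76 and 75.8 CPM in IP. The 3 groups followed each other without overlap. It fell by 0.70 (log2) from Input to IP (SE 0.06, edgeR adjusted p = 3.97e-06) and by 0.35 from Input to IgG (SE 0.09, edgeR adjusted p = 0.0291). The latter call was lost without Input replicate 1, 2 or 3 (edgeR adjusted p = 0.13, 0.123 and 0.139) and with a replicate block (0.118), and its sign turned (0.07) under an exon length correction described below. Between IP and IgG the log2 fold change of -0.31 had a 95% interval of -0.60 to -0.02 and was not called after adjustment over all genes (edgeR adjusted p = 0.154).

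Aramis, named as the tagged protein in the sample labels, showed no call in any comparison. Its own mRNA was at 78.9, 77.8 and 80.2 CPM in Input, 107, 56.9 and 73.3 CPM in IgG, and 97.2, 77.4 and 70.4 CPM in IP. The IgG and IP libraries spread around the narrow Input values, and the groups overlapped in all 3 comparisons. Relative to Input the IP value differed by 0.04 on the log2 scale (95% interval -0.19 to 0.28, edgeR adjusted p = 0.749), and relative to IgG by 0.07 (95% interval -0.48 to 0.63, edgeR adjusted p = 0.897). These intervals leave room for differences in either direction, more so against IgG than against Input.

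**Figure D1:**
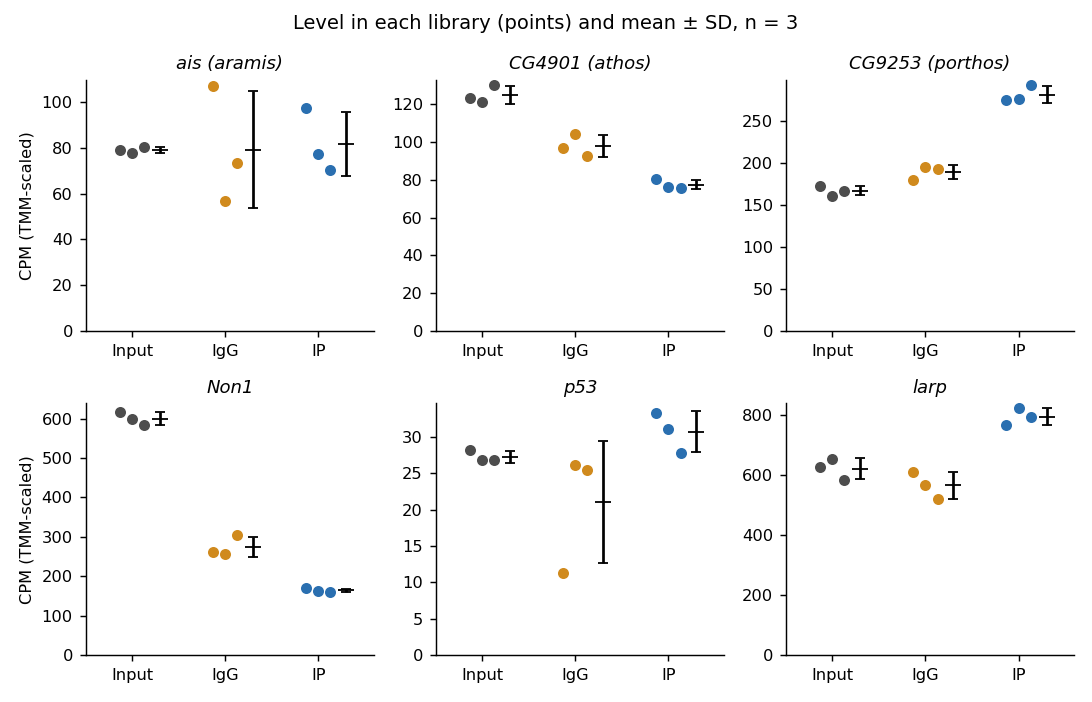
TMM-scaled CPM of each gene (vertical axes from 0) in the 3 Input, 3 IgG and 3 IP libraries, 1 point a library, with the mean and SD (n = 3) beside the points. The Non1 points step down from 583 to 616 CPM in Input to 159 to 169 CPM in IP, CG9253 and larp are highest in IP, and the ais and p53 points spread widely in IgG.

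larp, which encodes the TOP mRNA-binding protein, was at 628, 653 and 585 CPM in Input, 610, 569 and 520 CPM with IgG, and 768, 825 and 794 CPM in IP. All IP libraries lay above all others, while Input and IgG overlapped. By counts per gene the IP level exceeded that of Input by 0.35 (log2, SE 0.06, edgeR adjusted p = 0.000544) and that of IgG by 0.52 (SE 0.08, edgeR adjusted p = 0.00583). Both differences depended on how transcript length was handled, as described below.

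p53 had the lowest level of the 6 genes. It was at 28.2, 26.8 and 26.8 CPM in Input, 11.3, 26.2 and 25.5 CPM in IgG, and 33.3, 31.1 and 27.8 CPM in IP. One IgG library, replicate 1, held less than the remaining libraries. By the fit without length correction no comparison was called: relative to Input the IP value differed by 0.17 on the log2 scale (95% interval -0.04 to 0.38, edgeR adjusted p = 0.147), and relative to IgG by 0.58 (95% interval -0.20 to 1.35, edgeR adjusted p = 0.335). The IP over Input value was called with library totals in place of TMM (0.26), with the first exon length correction described below (0.30) and without IP replicate 3 (0.23). Without IgG replicate 1, the IP over IgG value was 0.25 (edgeR adjusted p = 0.398). Of the 2136 exon bases of p53, 812 (38.0%) also lie in the antisense gene asRNA:CR46089, which had no ID among those counted, and whether counting used strand is not given in the sources used here. CG9253 shares 10 exon bases (0.599%) with del on the opposite strand, and del was lower in IP (217 to 233 CPM) than in Input (343 to 355 CPM).

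Across the genes tested, 59.2% were called in IP over Input (28.5% higher and 30.8% lower), so a call in that comparison was common. Among the 6 genes, 2 were higher (CG9253 and larp) and 2 lower (CG4901 and Non1). In IP over IgG, 7.96% of genes were called, 4.77% higher and 3.20% lower, against 2 higher (CG9253 and larp) and 1 lower (Non1) of the 6. In IgG over Input, 26.9% were called, 10.3% higher and 16.6% lower, and of the 6 genes CG4901 and Non1 were lower and 0 were higher by edgeR, where 3 of the 6 had an unadjusted p under 0.05. The CPM ranges of the groups did not overlap in 66.7% of genes for IP over Input and in 4 of the 6, in 33.1% for IP over IgG and in 5 of the 6, and in 47.9% for IgG over Input and in 4 of the 6. The comparisons share libraries with each other, and agreement between them is not a repeat of a result.

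**Figure D2:**
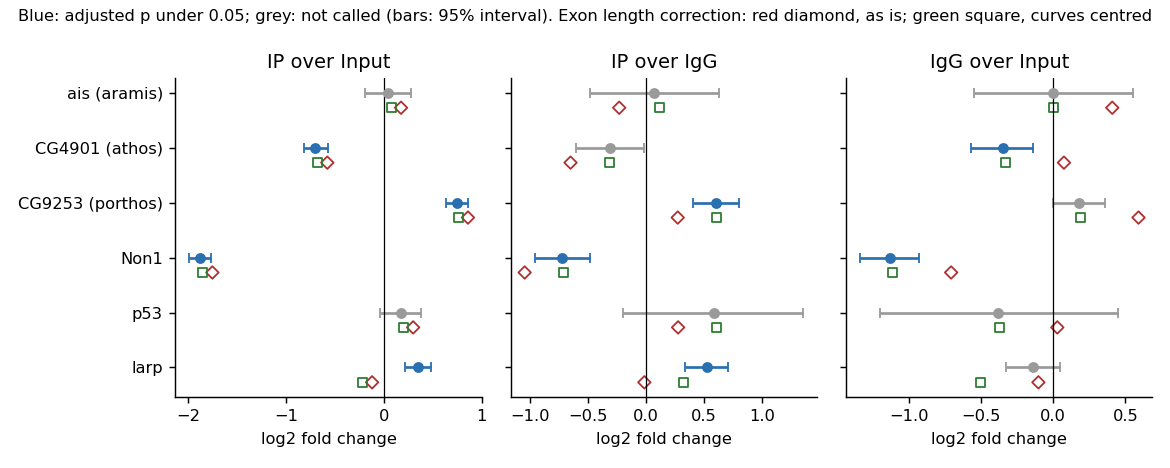
Log2 fold changes of the 6 genes with 95% intervals (circles, blue where the edgeR adjusted p was under 0.05) in the 3 comparisons, with the value after each form of exon length correction as a diamond or a square. Non1 lies left of 0 in every panel under each form, whereas larp moves from 0.35 to the left of 0 in the IP over Input panel under both.

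Exon length went together with the fold changes over all genes. In IP over IgG the median log2 fold change rose from -0.29 in the shortest of 5 equal classes of genes to 0.33 in the longest. In IP over Input the longest class had a median of 0.32, against -0.08 in the shortest and also in the middle class. In IgG over Input the median fell from 0.22 in the shortest class to -0.14 in class 4 and was -0.06 in the longest. larp, with 9126 exon bases, was longer than 96.7% of the genes with a length, while the other 5 genes had 1669 to 2331 exon bases and lay between the 37.8 and 55.7 percentiles. A correction for length with a loess curve per library turned the IP over Input value of larp to -0.12 (edgeR adjusted p = 0.223) and its IP over IgG value to -0.02 (edgeR adjusted p = 0.948). That curve also moved the median of all genes, to -0.34 in IP over IgG and to 0.36 in IgG over Input. A second form, chosen after the data were seen, centred each curve on its median so that the scaling between libraries stayed close to that of TMM, and left those medians at -0.01 and -0.04. With centred curves larp was at -0.22 in IP over Input (edgeR adjusted p = 0.031), the opposite direction to the uncorrected value, and at 0.32 in IP over IgG (edgeR adjusted p = 0.124). With a replicate block added to the centred curves, larp was called higher in IP over IgG. Non1 kept its call and direction under both forms in all 3 comparisons, as did CG9253 and CG4901 in IP over Input. The first form changed other values of these helicases: CG4901 went to 0.07 in IgG over Input (no longer called) and to -0.65 in IP over IgG (called), and CG9253 to 0.59 in IgG over Input (called). With centred curves these were -0.33 (called), -0.31 (not called) and 0.19 (not called), as without correction. CG9253 in IP over IgG was 0.27 (edgeR adjusted p = 0.0913) with the first form and 0.61 (edgeR adjusted p = 0.0101) with centred curves.

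**Figure D3:**
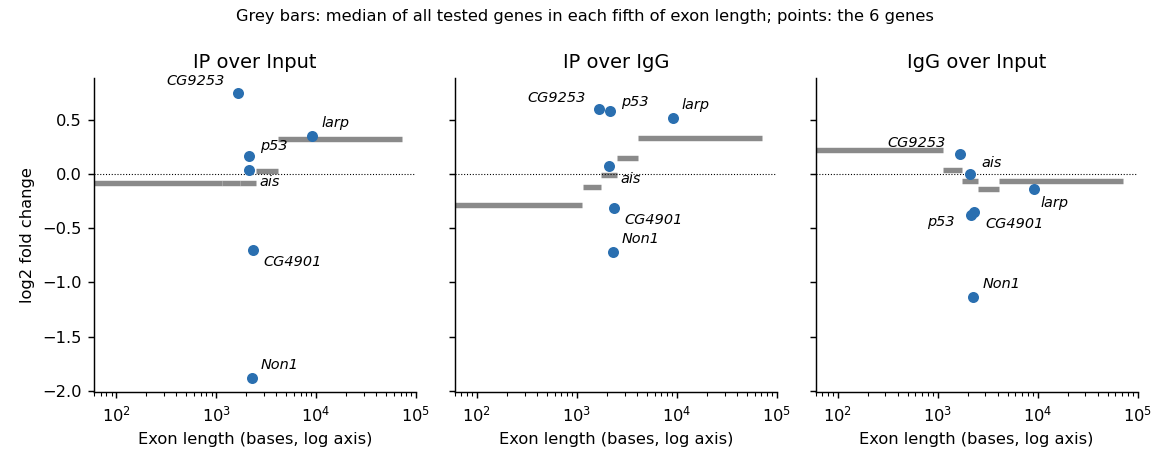
Log2 fold change (vertical axis) against exon length in bases (log axis) for the 6 genes, with grey bars for the median of all tested genes in each of 5 equal classes of length. larp lies close to the bar of the longest class in IP over Input, 0.35 against 0.32, and Non1 lies far below the bar of its own length in every panel.

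Ratios between genes within a library do not depend on scaling between libraries. The count of Non1 over that of larp was 0.982, 0.916 and 0.997 in Input, 0.43, 0.45 and 0.584 in IgG libraries, and 0.22, 0.198 and 0.2 in IP libraries, with no overlap between groups. For the helicases, the count of CG9253 over that of CG4901 was 1.4, 1.33 and 1.28 in Input, 1.86, 1.89 and 2.08 in IgG libraries, and 3.43, 3.63 and 3.86 in IP libraries. The 2 helicase transcripts thus moved further apart from Input to IgG and from IgG to IP. Each ratio set a gene lower in IP than in Input against a higher one, so the separation restates those differences. The share of other gene pairs without overlap was not counted. Through larp, the ratio with Non1 also carries the dependence on exon length described above.

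Levels per kilobase of exon put the genes on 1 scale. In Input the mean was 263 CPM per kb for Non1, 99.8 for CG9253, 68.2 for larp, 53.5 for CG4901, 37.4 for ais and 12.8 for p53, and no neighbours in this order overlapped. The IgG libraries kept the order, but Non1 (120 CPM per kb) overlapped with CG9253 (113), and CG4901 (41.9) with ais (37.5). In IP the order was CG9253 (168 CPM per kb), larp (87.2), Non1 (71.9), ais (38.7), CG4901 (33.2) and p53 (14.4), where ais and CG4901 overlapped.

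The annotated start sites of the 6 genes were searched for TOP-like runs. Of their 14 start sites, 0 opened with 5 or more C or T letters and the longest run was 3. Such starts are rare, since 2.73% of 13630 protein-coding genes had at least 1, so a count of 0 does not set the 6 genes apart. Annotated starts can differ from those used in the ovary, and a missing run says only that these letters are not at the annotated position.

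Over the 9 libraries, the genes whose levels followed each member most closely were sought among the 6350 genes averaging 10 CPM or more, as a description only. Non1 was closest to ATPsynbeta, the beta subunit of ATP synthase (Pearson r = 0.9965), which averaged 1510 CPM in Input libraries, 906 CPM in IgG libraries and 635 CPM in IP libraries. CG9253 was closest to Prp5 (r = 0.9957), at 91.3, 115 and 237 CPM in the same order. Closest to CG4901 was Pld3 (r = 0.9906), followed by nanos (r = 0.9899), which encodes a translational repressor of the germline and averaged 412, 165 and 72.7 CPM. larp was closest to CG1371 (r = 0.979), p53 to Nadk1a (r = 0.9859) and ais to sav (r = 0.9643). The 9 points share 3 groups, so these coefficients mostly describe the group means.

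Other helicases were set beside the 3 named ones. Of 9 tested helicases of ribosome assembly, 3 were higher and 4 lower in IP than in Input, where 28.5% of all genes were higher and 30.8% lower, with a median log2 fold change of -0.12 against 0.01 over all genes. The called genes with the largest rise and fall were pit (0.42, SE 0.05, edgeR adjusted p = 6.66e-05) and Dbp45A (-1.08, SE 0.11, edgeR adjusted p = 1.91e-05). Against IgG, 0 of the 9 were called by edgeR, which called 7.96% of all genes there. Of the 9, 1 had an unadjusted p under 0.05, and DESeq2 called 1. Of 10 RNA helicases with other roles, 2 were higher and 8 lower in IP than in Input (28.5% and 30.8% of all genes), with a median of -0.57. Against IgG, 2 of these 10 were higher and 2 lower (4.77% and 3.20% of all genes). The alternatives called 1 to 5 of them there. mle, a helicase of dosage compensation, was higher in IP than in Input (0.80, edgeR adjusted p = 3.12e-05) and IgG (0.76, edgeR adjusted p = 0.0159), and eIF4A, the helicase of translation initiation, was lower than in IgG (-0.49, edgeR adjusted p = 0.00207). Dbp80 was lower than Input in IP (-1.52, edgeR adjusted p = 3.4e-07) and in IgG (-1.32, edgeR adjusted p = 0.00695).

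Beside Non1, 10 factors of large subunit assembly were tested. In IP over Input, 2 were higher and 6 lower (28.5% and 30.8% of all genes), with a median of -0.24 against 0.01 over all genes. Ns3, a nucleostemin family GTPase, was higher (0.90, edgeR adjusted p = 3.12e-06), and its relative Ns1 was lower (-1.38, edgeR adjusted p = 3.43e-07). Neither was called in IP over IgG (0.57 and -0.66, edgeR adjusted p = 0.106 and 0.0691). Ns1 was also lower in IgG than in Input (-0.69, edgeR adjusted p = 0.0209). Against IgG, where 7.96% of all genes were called, 1 of the 10 was called, RpL24-like (-0.64, edgeR adjusted p = 0.0239). That count was 0 without IP replicate 1 or 2, 2 without IgG replicate 3 and 3 without IgG replicate 1. The Non1 value of -1.88 lay outside the range of these 10 in IP over Input. In IgG over Input its -1.13 also lay outside their range of -0.69 to 0.40. In IP over IgG its -0.72 lay within their range of -0.79 to 0.57.

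In the list around p53, 9 of 11 genes were tested, and the pro-apoptotic genes grim and skl had 0 counts in all 9 libraries. In IP over Input, 3 were higher and 3 lower (28.5% and 30.8% of all genes), with a median of -0.12. Corp, a regulator of p53, was higher (1.03, edgeR adjusted p = 5.59e-06), and lok, the checkpoint kinase Chk2, was lower (-0.77, edgeR adjusted p = 5.13e-07). Neither was called in IP over IgG (0.28 and -0.16, edgeR adjusted p = 0.698 and 0.743). Against IgG, 2 of the 9 were higher and 0 lower (4.77% and 3.20% of all genes), and the alternatives called 0 to 3. Among them tefu, the fly ATM kinase, was higher in IP than in IgG (1.18, edgeR adjusted p = 0.00534). For IgG over Input, 0 of the 9 were called by edgeR or DESeq2, and 0 had an unadjusted p under 0.05, but 2 were called without IgG replicate 1 and 3 without IgG replicate 3. With all libraries of the 2 groups, edgeR called 26.9% of all genes in that comparison. Of 5 genes of the apoptosis machinery, 3 were higher and 2 lower in IP than in Input, against 28.5% and 30.8% of all genes, among them the caspase gene Dcp-1 (0.95, edgeR adjusted p = 3.29e-07). Dcp-1 was also higher in IgG than in Input (0.51, edgeR adjusted p = 0.0293), and IP over IgG was not called (0.47, edgeR adjusted p = 0.0646). In IP over IgG edgeR called 0 of the 5, and 7.96% of all genes. Dark, the apoptosome gene, averaged 11.2 CPM in Input and 0.299 CPM in IP (log2 fold change -5.22, edgeR adjusted p = 0.000746). It averaged 0.394 CPM in IgG (log2 fold change over Input -4.82, edgeR adjusted p = 0.0769), and IP over IgG was -0.35 (edgeR adjusted p = 0.948). Of its exon bases, 2779 of 4883 are shared with asRNA:CR44390 on the opposite strand.

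Around larp, 8 genes of the La family, of cap and poly(A) binding and of TORC1 signalling were tested, and 2 were higher and 4 lower in IP than in Input (28.5% and 30.8% of all genes), with a median of -0.24 against 0.01 over all genes. pAbp, the poly(A)-binding protein gene, averaged 2960 CPM before precipitation, 1280 CPM with IgG and 835 CPM with the FLAG antibody, and was lower in IP than in Input (-1.83, edgeR adjusted p = 7.69e-08) and than in IgG (-0.59, edgeR adjusted p = 0.00869). Thor, the fly 4E-BP, was higher than Input in both precipitations, by 1.48 in IP and 1.27 in IgG on the log2 scale. raptor, a TORC1 subunit, averaged 112 CPM before precipitation, 16.1 CPM with IgG and 14.6 CPM with the FLAG antibody, and 1669 of its 7097 exon bases are shared with Mipp2 on the same strand. La was lower in IP than in Input (-0.31, edgeR adjusted p = 0.000562) and Larp4B higher (0.19, edgeR adjusted p = 0.00605). Neither was called in IP over IgG (-0.35 and 0.26, edgeR adjusted p = 0.0741 and 0.0759). Among all 8, edgeR called 1 higher and 2 lower in IP over IgG (4.77% and 3.20% of all genes). The alternatives called 1 to 5 of them there.

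**Figure D4:**
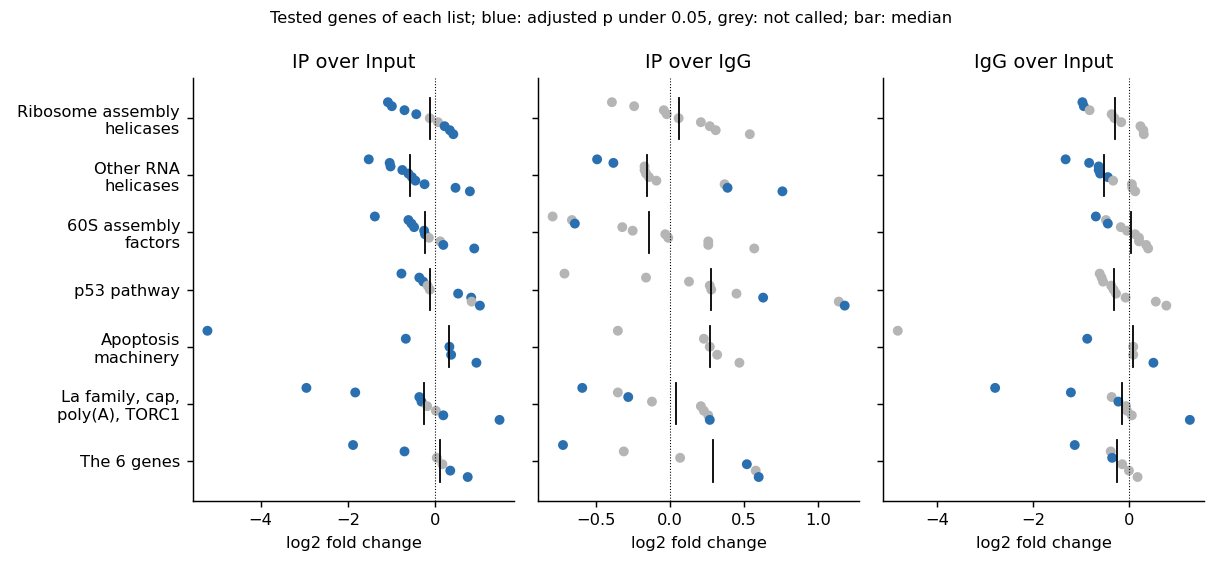
Log2 fold change (horizontal axes, scaled separately) of the tested genes of each list in the 3 comparisons, blue where the edgeR adjusted p was under 0.05 and grey otherwise, with a bar at the median. Blue points lie on both sides of 0 in each of the lists drawn for IP over Input. Fewer points are blue for IP over IgG, where 7.96% of all genes were called and the share called differed between the lists.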

How the data were processed

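Messenger RNA was measured in 9 ovary libraries, 3 each of Input, IgG and IP, grouped by the sample labels. The authors deposited whole-number counts per gene for each library, not normalized. The submitters' processing notes name HISAT2 2.1.0, featureCounts 1.4.6 and the dm6 build. The annotation, the use of strand and the treatment of reads shared between genes are not given in the sources used here. The 6 genes and all gene lists were chosen with earlier results of these data known. Names came from Ensembl release 115 (BDGP6.54), which named 16647 of 17024 IDs. Of 78 list entries 3 were not matched and are not analysed here. Each pair of groups was fitted in edgeR 4.0.16 (R 4.3.3) by quasi-likelihood with TMM scaling and robust dispersion, on the 8789 genes that passed filterByExpr (minimum count 10, smallest group 3), with p-values adjusted over all of them by Benjamini-Hochberg. 8235 genes were set aside. A gene was called at an adjusted p under 0.05. CPM used effective library sizes. Exon lengths were unions of annotated exons, and the correction for them used loess curves (span 0.3) as offsets.

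Genes were named by rule: all 6 members, the 3 genes most like each of them (1 or 2 of which are given), the called genes of each list with the largest rise and fall in each comparison, and genes overlapping a member. The rule also covers genes not discussed above. In IgG over Input these include CG8611 (-0.97, edgeR adjusted p = 0.0193) and Dronc (-0.87, edgeR adjusted p = 0.0283). In IP over IgG they include eIF4G1 (0.27, edgeR adjusted p = 0.0485). La and Larp4B, Dark and raptor in their overlaps, and the starts of transcripts were described in addition. One malformed ID was kept, and an alternative left it out. Replicate numbers were checked as pairs: deviations from the group means correlated at 0.343, 0.316 and 0.452 between same-numbered IP and Input libraries. The SEs, intervals, p-values and shares of called genes are nevertheless from the fit without pairing, unless another fit is named. A fit with the replicate number as a block was run as an alternative, and it changed no call of the 6 genes in IP over Input. Alternatives were DESeq2 1.42.0, other scalings and filters, fits of all 9 libraries, a replicate block, exon length, and leaving out each library. Fits were tested on simulated counts. Of genes simulated with a log2 change of 1, the fit without pairing recovered 72% in IP over Input. It recovered 44.2% in IP over IgG and 46.8% in IgG over Input, so a gene not called there can still differ. Replicate libraries differed by more than sampling noise.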

Additional observations from a re-analysis of the deposited data

How the results depend on the processing

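Depth ranged from 30533376 to 47080956 counts, IgG libraries held 7805 to 7929 genes with a count against 10966 to 11205 in Input, and 1 malformed ID took 5.89% to 14.6% of IgG counts. Together with the wide IgG spread this limits the comparisons with IgG. Non1 kept its direction and its call in every alternative run. Called genes in IP over Input were 5206, and 2778 with all 9 libraries fitted (2723 with the replicate block as well). Leaving out 1 library gave 4538 to 5441 there, 295 to 930 in IP over IgG (700 with all) and 446 to 3306 in IgG over Input (2364 with all, and 446, 448 and 490 without Input replicate 1, 2 or 3). In IP over IgG, DESeq2 called 1376 genes, library totals 1193 (1028 higher and 165 lower, against 419 and 281), all 9 libraries 2014, the replicate block 1264, both together 1825, exon length 1276 (65 higher, 1211 lower), exon length with the replicate block 1662 (91 higher, 1571 lower) and centred curves 247 (70 higher, 177 lower). In IgG over Input 38.4% of the calls were in the higher direction, against 25.8% with library totals, 49.8% with DESeq2, 49.7% with a mean of at least 50 counts, 72% with exon length and 81.3% with exon length and the replicate block. Library totals moved the median log2 fold change of all genes to 0.22 in IP over IgG and -0.14 in IgG over Input.

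For larp, IP over Input was -0.121 with exon length, -0.126 with the replicate block too, -0.219 with centred curves and -0.223 with centred curves and the replicate block. In IP over IgG it was -0.015 and -0.014 with exon length without and with the replicate block and 0.321 with centred curves (adjusted p = 0.124). With centred curves and the replicate block together it kept its IP over IgG call. In IgG over Input centred curves gave -0.507 and, with the replicate block, -0.511, both called. For p53, IP over Input was called with library totals (0.262), exon length (0.299) and exon length with the replicate block (0.298), and spanned 0.109 to 0.234 with 1 library left out, called at 0.234 without IP replicate 3. IgG over Input was 0.028 with exon length. For CG4901, IP over IgG was called with all 9 libraries (-0.337, also with the replicate block, -0.337), exon length (-0.649) and exon length with the replicate block (-0.648). Its IgG over Input call was lost with the replicate block (-0.356) and with centred curves and the replicate block (-0.331), and without any 1 Input library, with values of -0.398 to -0.321 over the libraries left out, and exon length gave 0.074 (0.073 with the replicate block). For CG9253, the IP over IgG call was lost with exon length (0.272) and exon length with the replicate block (0.271), and IgG over Input was called with both (0.591 and 0.591) and without IgG replicate 1, at 0.218 in a range of 0.161 to 0.218. For ais, which had no call, the sign changed in IP over IgG with exon length (-0.231) and with the replicate block too (-0.191), and in IgG over Input with library totals (-0.11), at least 1 count (-0.007), the replicate block (-0.048), all 9 libraries with the replicate block (-0.042) and centred curves with the replicate block (-0.045). With 1 library left out, ais spanned -0.098 to 0.138 in IP over Input, -0.134 to 0.322 in IP over IgG and -0.278 to 0.193 in IgG over Input. The length correction with uncentred curves also rescaled the libraries, as its shift of the median over all genes shows by construction. Same-numbered libraries correlated at 0.099, 0.037 and 0.239 between IP and IgG and 0.108, 0.098 and 0.226 between IgG and Input. Pairs with different numbers lay at -0.201 to 0.108 and at -0.168 to 0.065. The same-numbered pairs thus all lay above the others between IgG and Input, but not between IP and IgG. The replicate block changed the CG4901 call given above and no other call of the 6 genes. Causes of the other changes were not tested.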
